A study of Rattus norvegicus with 6 samples.

Results

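The 10 genes followed here act in the repair of alkylated DNA, and only their RNA signal was measured, not protein or repair itself. The products of 3 of them, Mgmt, Alkbh2 and Alkbh3, undo the damage on the base itself, and those of the other 7, Mpg, Apex1, Polb, Xrcc1, Lig3, Parp1 and Parp2, act in base excision repair. The genes were chosen by name, and their probes were found through the RefSeq accession that the array design gives for each probe. Of the 10 genes, 9 had a probe found in this way, with 14 probes among the 61537 on the array that were not controls. No probe was matched to Lig3, which was not analysed here. Probes that matched no gene could not be searched for it. All 14 probes were well above background on all 6 arrays, so all 9 measured genes passed the filter on dim probes, and they stood among 34915 features tested.

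The samples came from renal cortex. The rats were male Sprague-Dawley, Crl:CD(SD), bought at the age of 5 weeks and kept on a basal diet under a 12 h light and 12 h dark cycle. Of these, 3 received the N-nitroso compound N,N'-dinitrosopentamethylenetetramine (the DNPT group, 200 mg/kg/day over 4 weeks), and 3 received corn oil over the same period (the vehicle group). All 3 vehicle samples and DNPT replicate 1 were on slide 1, while DNPT replicates 2 and 3 were on slide 2, scanned on another day. Slide 2 therefore held no vehicle sample. Between 42116 and 45167 probes per array were well above background. Markers of the proximal tubule (7 of 7) and of podocytes (5 of 5) were well above background on all 6 arrays. So were 4 of 5 markers of inner medulla and urothelium, and 3 of the 5 liver, fat and adrenal markers on the array. Signals are given as log2 of the processed signal over the 75th percentile of the array, a change is the DNPT mean minus that of vehicle, given with its standard error (SE), and intervals are the 95% intervals of limma. Only 6 arrays limit the precision of every value.

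Alkylating agents, among them many N-nitroso compounds, place methyl and other alkyl groups on the bases of DNA. MGMT moves the group from the O6 position of guanine onto itself and is used up in doing so, while ALKBH2 and ALKBH3 oxidise methyl groups off adenine and cytosine. In base excision repair, the glycosylase MPG removes alkylated purines, APEX1 cuts the abasic site that is left, POLB fills the gap and XRCC1 with LIG3 seals it, while PARP1 and PARP2 sense the strand break and attract the other proteins.

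The start regions of the genes are shown for the enzyme that marks each route, Mgmt and Mpg, and for Apex1, which held the most E-boxes. Each is the RefSeq window from 250 bases before to 50 bases after the start of the gene, on assembly GRCr8, at chr1:201140582-201140881 (+ strand) for Mgmt, chr10:15906875-15907174 (- strand) for Mpg and chr15:26617976-26618275 (+ strand) for Apex1. Capitals mark matches, on either strand, to the GC box GGGCGG, the E-box CACGTG or TGACG, part of the cAMP response element.
Mgmt: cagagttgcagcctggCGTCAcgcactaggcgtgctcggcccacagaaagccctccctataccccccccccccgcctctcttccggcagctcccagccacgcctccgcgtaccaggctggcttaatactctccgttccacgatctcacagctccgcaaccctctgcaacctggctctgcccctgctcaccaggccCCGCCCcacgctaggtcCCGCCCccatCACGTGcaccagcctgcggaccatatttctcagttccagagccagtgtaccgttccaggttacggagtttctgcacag
Mpg: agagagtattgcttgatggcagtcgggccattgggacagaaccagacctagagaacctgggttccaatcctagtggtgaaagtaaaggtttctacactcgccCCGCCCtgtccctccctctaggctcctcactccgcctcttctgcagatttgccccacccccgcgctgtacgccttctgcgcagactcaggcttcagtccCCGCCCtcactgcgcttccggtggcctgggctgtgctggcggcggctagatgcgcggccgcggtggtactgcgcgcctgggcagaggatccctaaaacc
Apex1: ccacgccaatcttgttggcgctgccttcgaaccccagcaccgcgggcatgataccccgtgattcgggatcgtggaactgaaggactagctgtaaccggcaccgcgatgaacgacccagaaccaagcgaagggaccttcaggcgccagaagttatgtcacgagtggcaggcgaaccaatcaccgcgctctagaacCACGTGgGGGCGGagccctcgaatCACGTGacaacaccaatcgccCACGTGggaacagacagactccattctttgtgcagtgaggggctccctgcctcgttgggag
Windows were at hand for 9 of the 10 genes, Lig3 included, and not for Polb. A GC box was found in 7 of the 9, against 33.1% of all 33469 windows and 41.8% of those of protein-coding genes. The E-box, the site that the clock activators are known to bind, was found in Mgmt (1 match), Lig3 (1 match) and Apex1 (3 matches), against 6.42% of all windows and 7.02% of those of protein-coding genes. TGACG was found in Mgmt and Parp2, against 21.2% of all windows. None of the 9 held the TATA box TATAAA, against 14.2% of all windows. No matches overlapped within these windows. The 9 windows held 16 to 37 CpG pairs, where the median over all windows was 7 and over those of protein-coding genes 11. These matches describe the letters and do not show binding.

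None of the 9 genes changed past the threshold after DNPT. With limma and Benjamini-Hochberg adjustment over all 34915 features, 0 of 9 had an adjusted p under 0.05, where 0% of all features did. At an unadjusted p under 0.05, 1 of the 9 was called, Mpg on the higher side, against 6.02% of all features called higher and 6.07% called lower. The groups did not overlap in 2 genes, Mpg with DNPT higher and Polb with DNPT lower, against 12.1% of all features with DNPT higher and 8.18% with DNPT lower. A single gene of 9 is close to these background shares. Of the 9 changes 6 were positive, against 52.3% of all features. They ran from -0.16 to 0.29 with a median of 0.12, where the median over all features was 0.013 and over the 12687 named genes 0.038. These are signals of whole tissue, in which fewer cells of a type and less RNA per cell cannot be told apart.

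**Figure D1:**
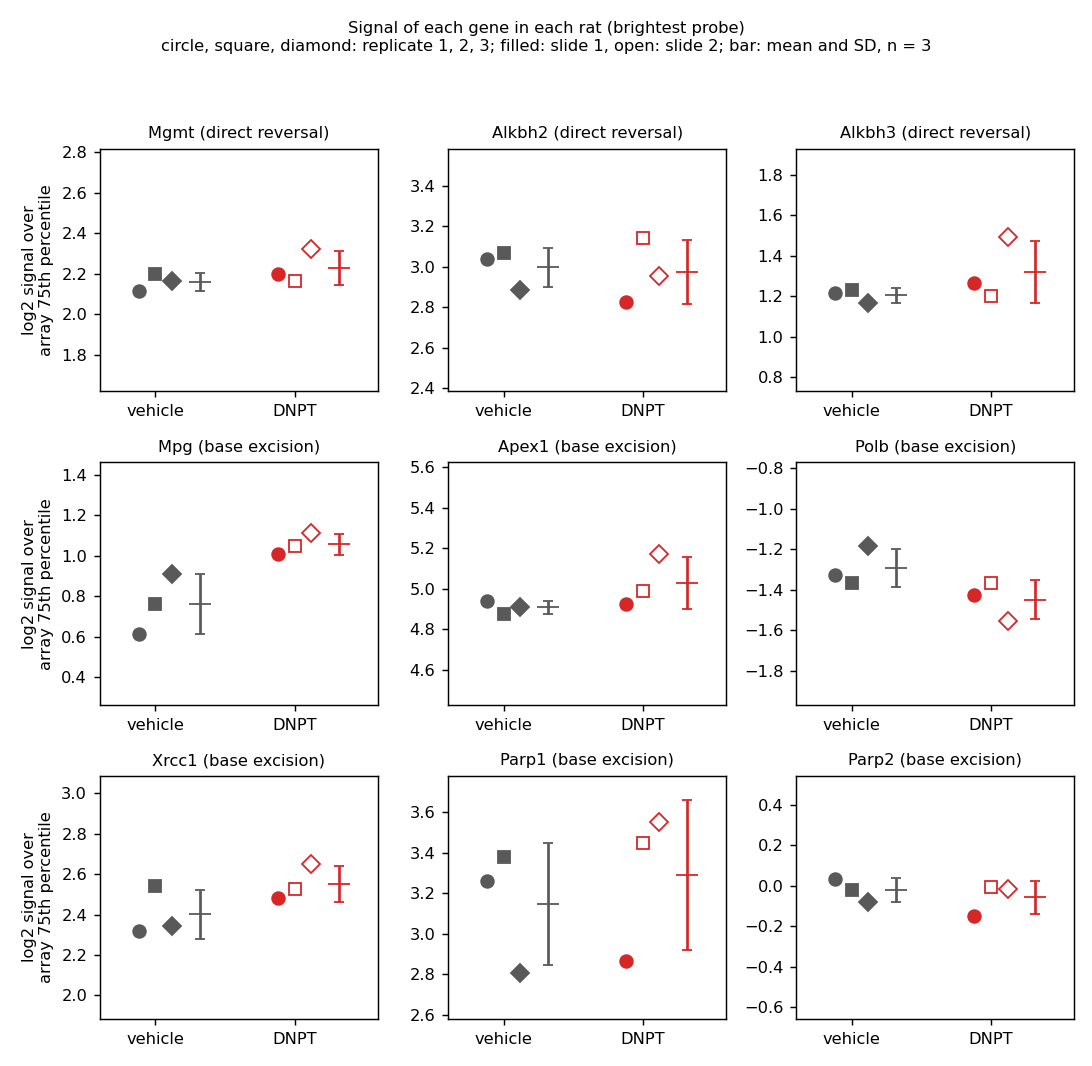
Log2 signal over the array's 75th percentile for the brightest probe of each of the 9 measured genes, in the 3 vehicle rats (grey) and 3 DNPT rats (red), each panel spanning the same range of log2 units, with bars for mean and SD. The groups overlap in all panels but Mpg, where DNPT lies higher, and Polb, where it lies lower.

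Mgmt, the O6-alkylguanine transferase, showed no difference past the threshold. Its signal was 2.11, 2.20 and 2.16 in vehicle replicates 1 to 3 and 2.20, 2.16 and 2.32 in DNPT replicates 1 to 3. DNPT replicates 1 and 2 lay within the vehicle range, and only replicate 3 lay above it. The change was 0.070 (SE 0.084, adjusted p = 0.732), a fold of 1.05 with an interval of 0.910 to 1.21. Without DNPT replicate 3 the Mgmt change was 0.023. Before scaling, the processed signal of the Mgmt probe was 5391, 6111 and 5213 in vehicle rats and 5105, 4253 and 4984 in DNPT rats, lower in all 3 DNPT rats. The 75th percentile of all probes was lower in those arrays too, at 953 to 1112 against 1164 to 1329, so the scaling decides the sign of this small difference.

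Alkbh2, the AlkB-type demethylase that acts mainly on double-stranded DNA, had no clear difference. The brighter of its 2 probes read 3.04, 3.07 and 2.89 in vehicle rats and 2.83, 3.14 and 2.95 in DNPT rats. DNPT rats held both the lowest and the highest of the 6 values. The change was -0.023 (SE 0.11, adjusted p = 0.941), with an interval of -0.30 to 0.26. The other probe read 1.90, 2.03 and 1.83 in vehicle and 1.68, 1.85 and 1.73 in DNPT rats, a change of -0.17 (SE 0.095, limma adjusted p = 0.501 over all probes). On both probes DNPT replicate 1 was the lowest sample.

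Alkbh3, a demethylase with a preference for single-stranded DNA and RNA, had a somewhat higher mean in DNPT rats, with 1 animal above the rest. Its signal was 1.21, 1.23 and 1.16 in vehicle rats and 1.26, 1.20 and 1.49 in DNPT rats. DNPT replicate 3 stood 0.29 above the vehicle mean, while replicate 1 was 0.060 above it and replicate 2 level with it. The change was 0.12 (SE 0.10, adjusted p = 0.635), with an interval of -0.14 to 0.37, and was 0.030 without DNPT replicate 3. As a group, the 3 direct reversal genes had a median change of 0.070, and in none of them did the groups separate.

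Mpg, the glycosylase that starts the excision of alkylated purines, had the largest change of the 9 genes. Its brighter probe read 0.61, 0.76 and 0.91 in vehicle rats and 1.01, 1.05 and 1.11 in DNPT rats. All 3 DNPT values were above all vehicle values, with vehicle replicate 3 the closest. The change was 0.29 (SE 0.10), a fold of 1.23 with an interval of 1.03 to 1.46, at an unadjusted limma p of 0.0294 and an adjusted p of 0.395. The second Mpg probe gave the same order of the groups, with -0.13, -0.0013 and -0.058 in vehicle rats against 0.16, 0.082 and 0.17 in DNPT rats. Its change was 0.20 (SE 0.079, adjusted p = 0.418 over all probes). The rat of slide 1, DNPT replicate 1, was 0.25 above the vehicle mean, and replicates 2 and 3 on slide 2 were 0.29 and 0.35 above it. Mpg did not keep an unadjusted p under 0.05 once slide was a block (limma adjusted p = 0.837), on slide 1 alone (limma adjusted p = 0.802), or without vehicle replicate 1 or 2 or DNPT replicate 2 or 3. In the order of unadjusted p-values Mpg stood at rank 2598 of the 34915 features.

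Apex1, the nuclease that cuts abasic sites, did not differ beyond the spread of the DNPT rats. It read 4.94, 4.88 and 4.91 in vehicle rats, a narrow range, and 4.93, 4.99 and 5.17 in DNPT rats. Here DNPT replicate 1 lay inside the vehicle range and replicate 3 lay 0.26 above the vehicle mean. The change was 0.12 (SE 0.094, adjusted p = 0.590), with an interval of -0.11 to 0.35, and the other probe gave 0.14 (SE 0.11). The Apex1 change was 0.049 without DNPT replicate 3, 0.018 with slide as a block, 0.034 with quantile normalization alone and -0.0014 with normexp background correction and quantile normalization together.

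Polb, the polymerase that fills the gap, was the gene with the lowest change of the 9. Its single probe read -1.33, -1.36 and -1.19 in vehicle rats and -1.43, -1.37 and -1.56 in DNPT rats. All DNPT values lay below all vehicle values, but DNPT replicate 2 and vehicle replicate 2 were almost level. The change was -0.16 (SE 0.095, adjusted p = 0.503), a fold of 0.896 with an interval of 0.762 to 1.05. Mpg and Polb, which act at the first and at a later step of the same route, thus had changes of opposite sign, neither of them past the adjusted threshold.

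Xrcc1, the scaffold that holds the ligase at the break, read 2.32, 2.54 and 2.35 in vehicle rats and 2.48, 2.52 and 2.65 in DNPT rats. The groups overlapped through vehicle replicate 2. The change was 0.15 (SE 0.10, adjusted p = 0.534), with an interval of -0.096 to 0.40.

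Parp1, the main sensor of strand breaks, varied more between rats, on its brighter probe, than any other of the 9 genes. The brighter probe read 3.26, 3.38 and 2.81 in vehicle rats and 2.87, 3.45 and 3.55 in DNPT rats. Vehicle replicate 3 and DNPT replicate 1 were both low, and the other 4 rats were high, so the spread ran across the groups. The change was 0.14 (SE 0.24, adjusted p = 0.814), with an interval of -0.45 to 0.73 that allows a fall to 0.7325-fold or a 1.66-fold rise. It was -0.28 with slide as a block and -0.030 without vehicle replicate 3. The second Parp1 probe did not show the low samples, with 0.77, 0.75 and 0.86 in vehicle and 0.77, 0.93 and 1.00 in DNPT rats. On that probe the change was 0.11 (SE 0.093, adjusted p = 0.648 over all probes), so the 2 probes of this gene disagree about which rats were low.

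Parp2, the second break sensor, read 0.036, -0.020 and -0.079 in vehicle rats and -0.15, -0.0049 and -0.015 in DNPT rats. DNPT replicate 1 was below the vehicle range and the other two were inside it. The change was -0.036 (SE 0.085, adjusted p = 0.871), and the second probe gave 0.045 (SE 0.14), with intervals of -0.25 to 0.17 and -0.30 to 0.39.

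**Figure D2:**
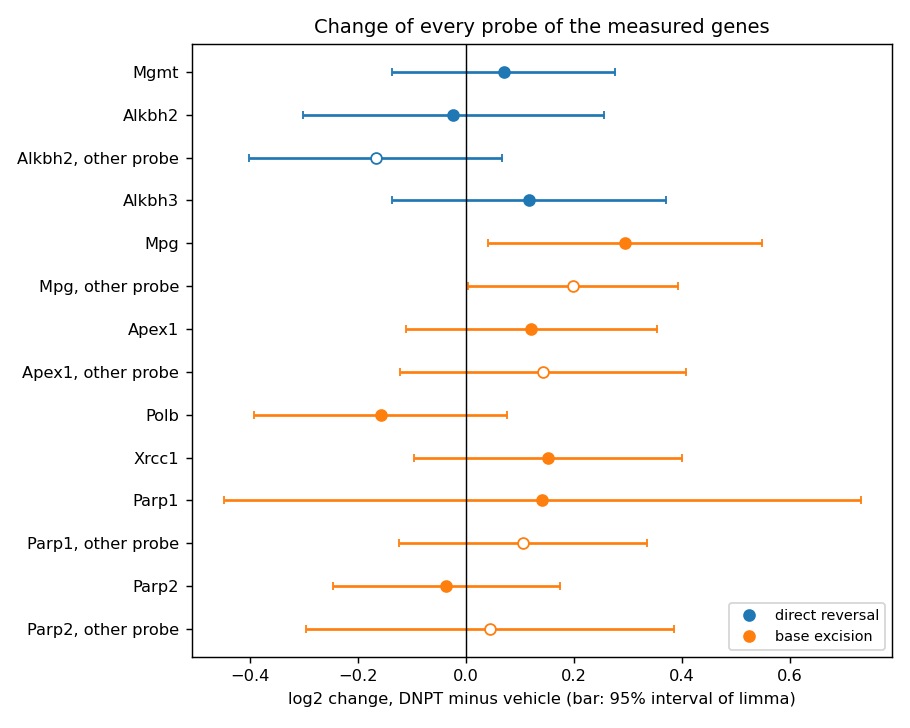
Log2 change, DNPT minus vehicle, of all 14 probes of the 9 genes, with the 95% interval of limma (filled for the brightest probe of a gene, open for the other one). Intervals of the direct reversal genes (blue) all include 0, and among base excision genes (orange) those of both Mpg probes lie above 0 before adjustment.

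The base excision genes as a group had a median change of 0.13 over 6 genes, with 4 positive and 2 negative. That median was not the same in all DNPT rats. Set against the vehicle mean, DNPT replicates 1 to 3 had base excision medians of -0.056, 0.10 and 0.26, and direct reversal medians of 0.041, 0.0044 and 0.17. The lowest base excision median was thus that of replicate 1, which shared the slide of the vehicle samples, although 3 of the 6 genes, Mpg, Apex1 and Xrcc1, were above the vehicle mean in it. With slide as a block, which sets this rat alone against the 3 vehicle rats, the base excision median was -0.056. It was 0.030 without DNPT replicate 3, 0.046 without vehicle replicate 3 and 0.050 with quantile normalization.

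DNPT replicate 3 had the highest signal of all 6 samples in 6 of the 9 genes, Mgmt, Alkbh3, Mpg, Apex1, Xrcc1 and Parp1, and the lowest in Polb. How often this sample was highest over all features was not counted. Its median deviation from the vehicle mean was 0.25 over the 9 genes, 0.0057 over all features and 0.0415 over named genes. The same sample stood apart in markers of liver, fat and adrenal, of which 3 were well above background on all 6 arrays. The summed signal of liver, fat and adrenal markers (5 of 6 genes on the array, Cyp11b1 of the adrenal not well above background on any array) was 21.7 in DNPT replicate 3, against 0.880 and 1.33 in the other DNPT rats and 1.02 to 3.13 in vehicle rats. Proliferation markers, 9 of 10 on the array, summed to 8.10 in DNPT replicate 3, 9.99 and 12.4 in DNPT replicates 1 and 2, and 7.62 to 8.80 in vehicle rats. All 9 had a higher mean in DNPT (median change 0.35), 2 of them without overlap of the groups. Lymphocyte markers (8 of 10 on the array) summed to 1.97 to 1.98 in DNPT and 2.40 to 2.67 in vehicle rats, and red cell markers (6 of 6) to 704 to 788 and 544 to 670, in both cases without overlap. Of the 8 lymphocyte markers tested, 7 were lower, 3 of them without overlap, and 1 was higher without overlap (median change -0.43). All 6 red cell markers were higher, 4 of them without overlap. Markers of the proximal tubule (7 of 7) summed to 1573 to 1832 in DNPT and 1410 to 1564 in vehicle rats, those of endothelium (5 of 5) to 75.5 to 92.2 and 71.7 to 75.3, and those of inner medulla and urothelium (5 of 5, Upk2 not well above background on any array) to 0.995 to 1.35 and 0.922 to 0.978, again without overlap. The endothelium sums of the groups nearly met. Of the proximal tubule markers 6 were higher in DNPT, 2 of them without overlap, and 1 lower (median change 0.093). Of the endothelium markers 4 were higher, 1 of them without overlap, and 1 lower (median change 0.11). Of the 4 inner medulla and urothelium markers tested, however, 3 were lower and 1 higher in DNPT, with a median change of -0.15. Macrophage markers (6 of 6 on the array) summed to 52.5 to 68.5 and 63.9 to 80.7, distal nephron markers (7 of 7) to 412 to 488 and 461 to 521, and podocyte markers (5 of 5) to 26.6 to 35.7 and 27.6 to 30.9, with overlap. All 5 macrophage markers tested were lower in DNPT (median change -0.26), 1 of them without overlap. The distal nephron and podocyte sums hide mixed directions. Of the distal nephron markers 3 were higher in DNPT, 2 of them without overlap, and 4 lower (median change -0.11). Of the podocyte markers 1 was higher and 4 lower (median change -0.20). The part of these cells in the values of the repair genes was not tested.

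**Figure D3:**
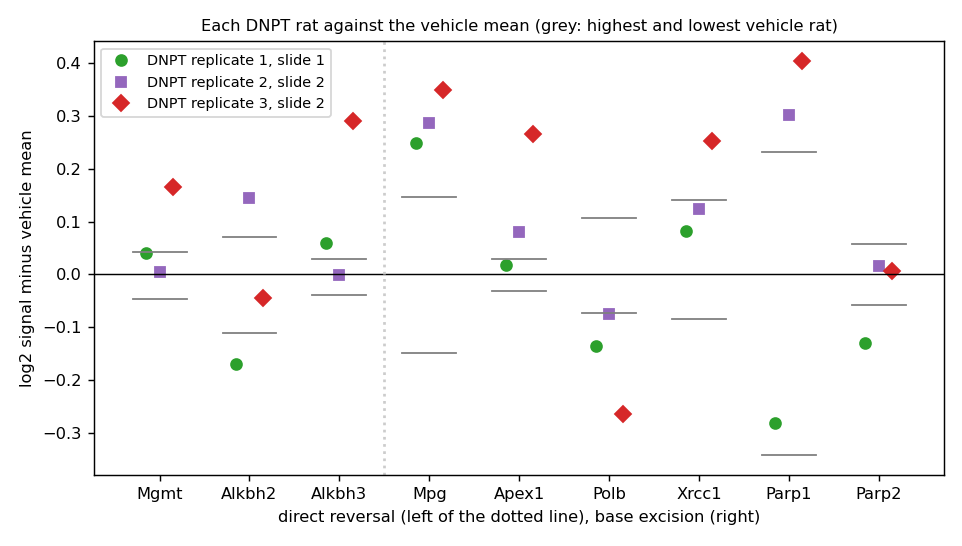
Log2 signal of each DNPT rat minus the vehicle mean, for the brightest probe of the 9 genes, with grey lines for the highest and lowest vehicle rat. DNPT replicate 3 (diamonds) is the highest of the 6 samples in 6 genes, and DNPT replicate 1 (circles), on the slide of the vehicle rats, lies below the vehicle mean for Alkbh2, Polb, Parp1 and Parp2.

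Around these genes, 2 wider lists were followed. The first held 22 other genes of base excision and strand break repair, of which 20 were tested. None passed the adjusted threshold, 2 had an unadjusted p under 0.05 on the higher side and 0 on the lower side, against 6.02% and 6.07% of all features, and the median change was 0.10, against 0.013 over all features and 0.038 over named genes. The second list held 10 genes, the other AlkB family members and the ASCC proteins that work with ALKBH3. Of 8 tested, 0 passed the adjusted threshold, 1 had an unadjusted p under 0.05 on the higher side and 0 on the lower side, against the same background shares, and the median change was 0.17, against the same medians.

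Parp3, a relative of Parp1 and Parp2 that acts at double-strand breaks, had the smallest p of both lists. Its brighter probe read -1.16, -1.12 and -0.95 in vehicle rats and -0.24, -0.47 and -0.41 in DNPT rats. All 3 DNPT rats, the one on slide 1 included, were above all vehicle rats by a wide gap. The change was 0.70 (SE 0.11), a fold of 1.62 with an interval of 1.35 to 1.95, at an unadjusted limma p of 0.000679 and an adjusted p of 0.257. A second Parp3 probe read -2.03, -1.92 and -1.76 against -1.03, -1.41 and -1.25, a change of 0.67 (SE 0.13). Both PARP sisters among the 9 genes lay nearer to 0, but the difference between Parp3 and them was not tested.

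Aplf, a factor that reads the poly(ADP-ribose) made at breaks, read 1.37, 1.09 and 1.23 in vehicle rats and 1.57, 1.41 and 1.54 in DNPT rats, and its change was 0.28 (SE 0.10, adjusted p = 0.400). The second Aplf probe gave 0.26 (SE 0.11), also without overlap of the groups. Alkbh7, a mitochondrial member of the AlkB family, had a change of 0.32 (SE 0.12, adjusted p = 0.399) on its brighter probe, where the groups did not overlap, and of 0.073 (SE 0.15) on the other, where they did. With slide as a block neither gene kept an unadjusted p under 0.05 (limma adjusted p = 0.762 for Aplf and 0.868 for Alkbh7), and each had one in 11 of 19 alternatives, while Parp3 had one in all 19. The Alkbh7 call was also lost with the replicate block (limma adjusted p = 0.554).

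**Figure D4:**
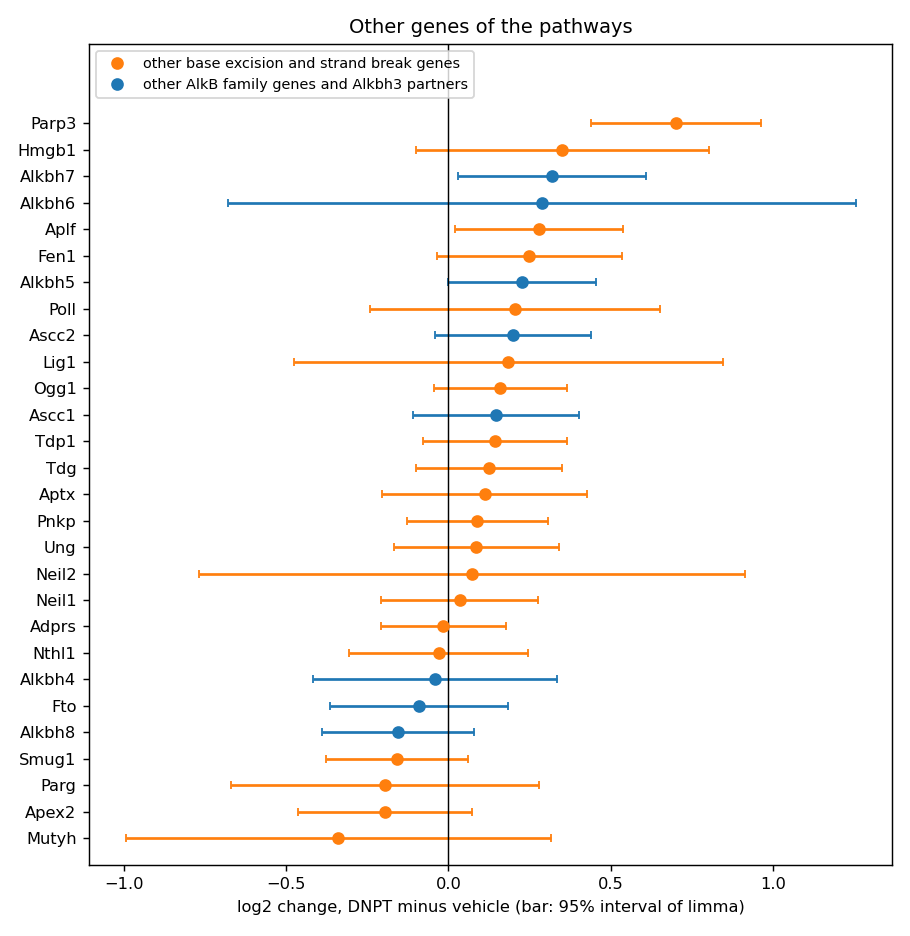
Log2 change, DNPT minus vehicle, with the 95% interval of limma, for the tested genes of the 2 wider lists (orange: 20 other base excision and strand break genes, blue: 8 other AlkB family genes and ALKBH3 partners). Parp3 has the highest change at 0.70, and the intervals of Aplf and Alkbh7 also lie above 0 before adjustment.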

How the data were processed

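Total RNA of renal cortex was labelled with Cy3 and hybridised to 1-colour Agilent arrays, per the labels' protocols, and the scans were read with Agilent Feature Extraction 10.7, per the submitters' processing notes. The deposited files hold an intensity per spot after background correction, the processed signal, per the file headers. In the deposited value table the unit is a linear ratio, the processed signal over 1 divisor per array near its 75th percentile (100% of probes with a ratio above 0.05 within 0.5% of it), without centring; how it was made is not stated by the labels. Control spots and 113 flagged values were left out. Processed signals were divided by the 75th percentile of their array, put on a log2 scale and tested two-sided with limma 3.58.1 (lmFit, eBayes; R 4.3.3), with no covariates and Benjamini-Hochberg adjustment at 0.05 over 34915 features. A probe was tested if well above background on at least 3 of 6 arrays with at least 2 values per group, and a gene was its probe with the highest mean. Of 61537 probes, 28206 matched 1 gene by RefSeq accession (GRCr8, names only), 0 several and 33331 none; the files hold no gene name column. Named genes outside the 10 were those of the wider lists with an unadjusted p under 0.05, and Lig1, chosen after its values were seen. The 10 genes and all lists were chosen with earlier results of these data known. The procedure was tested on simulated data with planted changes larger than any of the repair genes and no slide effect. That test does not bear on changes as small as these. Alternatives were other scalings, background correction, filters, probe rules, variance models, a block for slide or for replicate number, the samples of slide 1, and each sample left out. Python 3.11.15, pandas 2.3.3 and matplotlib 3.10.9 made tables and plots.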

Additional observations from a re-analysis of the deposited data

How the results depend on the processing

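The number of the 9 genes called at an adjusted p under 0.05 was 0 in all 19 alternatives run. Mgmt, Alkbh3, Mpg, Xrcc1, Polb, Parp3, Aplf and Alkbh7 kept their direction in all 19, which are not all separate checks of direction. For these genes the change equalled the main one with every probe tested, the intensity trend, both other filters and the replicate block. Slide as a block and slide 1 alone gave the same change as each other. Mpg had changes of 0.22 to 0.37 (adjusted p 0.222 to 0.837) and an unadjusted p under 0.05 in 13 of 19, and Parp3 changes of 0.62 to 0.84 (adjusted p 0.068 to 0.655). The direct reversal median ran from 0.023 to 0.10, and the base excision median from -0.056, both with slide as a block and on slide 1 alone, to 0.18. Reversed directions were found for Alkbh2 with array weights (0.0092), without DNPT replicate 1 (0.050) and without vehicle replicate 2 (0.012), for Parp2 with the mean of probes (0.0044) and without DNPT replicate 1 (0.011), for Apex1 with normexp and quantile normalization together (-0.0014; 0.034 with quantile normalization alone), and for Parp1 with slide as a block or slide 1 alone (-0.28) and without vehicle replicate 3 (-0.030). With a sample left out, changes ran from -0.11 to 0.050 for Alkbh2, from -0.030 to 0.35 for Parp1 and from -0.065 to 0.011 for Parp2. The cause was not tested. Of the 9 genes, 2 had an unadjusted p under 0.05 with normexp and quantile normalization (Mpg and Xrcc1), 0 with slide as a block or slide 1 alone, and 0 or 1 with a sample left out. Over all features, unadjusted calls numbered 4219, against 6357 with array weights, 8756 without the filter, 2709 on slide 1 alone, 2389 with slide as a block and 2541 to 7313 with a sample left out. Adjusted calls numbered 0, against 2 with normexp and quantile normalization, 1 with slide as a block and 0 to 619 with a sample left out; the 619 came without DNPT replicate 1, and 3 came without vehicle replicate 2. Without DNPT replicate 1, all DNPT samples left were on slide 2 and all vehicle samples on slide 1. Treatment and slide cannot be told apart in that fit, which also gave the Parp3 limma adjusted p of 0.068. The values gave no sign that the replicate numbers pair the rats. Same-numbered rats had deviation correlations of -0.18, -0.059 and -0.18, and no vehicle rat correlated best with its own number. With so few rats per group, and slide differing among the DNPT rats, these correlations cannot settle whether the rats were paired. With the replicate block 3090 features had an unadjusted p under 0.05 and 0 of the 9 genes passed the adjusted threshold. Names from accessions alone were the only names the files allow, so that alternative was not run. Values on slide 1 rest on 1 DNPT rat.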

Other observations

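Lig1, the ligase of long-patch base excision and replication, had the same split of rats as the brighter Parp1 probe. It was chosen after its values were seen. It read 1.65, 1.71 and 0.92 in vehicle rats and 1.25, 1.78 and 1.80 in DNPT rats, lowest in vehicle replicate 3 and next lowest in DNPT replicate 1. Its change was 0.18 (SE 0.27, limma adjusted p = 0.781).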
